A study of Mus musculus with 20 samples.

Results

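Swiss 3 is one of 7 clonal fibroblast lines in this series and one of its 3 lines labelled non-adipogenic, the class that does not turn into fat cells. All 3 of its arrays were set against the 6 arrays of the other non-adipogenic lines, Swiss 5 and Swiss 22, so that 9 of the 20 arrays of the series entered the comparison, chosen by their titles alone. The lines were cloned from Swiss 3T3, an immortalized strain of mouse embryo fibroblasts, and the other 4 lines, numbered 2, 8, 9 and 19, were labelled preadipose. All groups shared one culture state: cells grew in DMEM with 10% bovine serum, a medium that does not start differentiation, and were taken before growth arrest. No group carried an added transgene or drug per the labels. Total RNA was labelled from its poly(A) end and hybridized to a 3' expression array. Each line is 1 clone, and the labels do not say whether its 3 arrays came from separate cultures, so p-values cover the spread between arrays only, which may be technical.

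A clonal line descends from 1 cell, and clones of one strain can keep stable differences in gene expression through many divisions. Fibroblasts in culture make the collagen matrix, the proteases that remodel it and the lysosomal enzymes that digest what the cell takes up. They also run antiviral genes at a low resting level, which type I interferon raises. Dividing cells express the genes of DNA replication in S phase and those of mitosis in G2 and M phase, together with the genes that make nucleotides, ribosomes and protein-folding chaperones.

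The deposited intensities differed in brightness. Judged by 9 hybridization-spike probe sets, replicates 1 and 2 of Swiss 3 belonged to the 11 dim arrays of the series and replicate 3 to the 9 bright ones, as did all arrays of Swiss 5 and Swiss 22. Each result was therefore also taken with the dim pair alone and with the bright array alone. Arrays of Swiss 3 correlated at 0.981 to 0.983 with each other over the 9096 brighter genes, at 0.938 to 0.953 with Swiss 5 and at 0.949 to 0.959 with Swiss 22, whereas Swiss 5 and Swiss 22 correlated at 0.977 to 0.984. The bright Swiss 3 array had correlations of 0.942 to 0.959 with the 6 others. The ratio of the 3' to the 5' probe set of Actb, a measure of RNA integrity, was 0.97 to 0.986 in Swiss 3, 1.03 to 1.06 in Swiss 5 and 1.07 to 1.09 in Swiss 22. It moved with the line, and its part in the results was not tested.

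Fibroblast markers were present in Swiss 3. All 19 fibroblast markers of a fixed list were above background, the 95th percentile of 27 unspiked control probe sets. Of these, 6 were higher and 5 lower than in the other 2 lines (8.87% and 9.54% of all genes). With each array centred on its log2 median, 1 was higher and 16 lower, where 671 and 7428 of all 18193 genes were. Ptprc, Pecam1, Cdh1 and Myog, which define leukocytes, endothelium, epithelium and skeletal muscle, were not above background in any of the 3 lines. Other markers of such cells were above background in at least 1 of these lines. The counts were 12 of 18 endothelial, 7 of 18 epithelial, 8 of 24 skeletal muscle and 10 of 15 neural and glial markers. Of 16 macrophage and leukocyte markers, 12 were above background in at least 1 of the 3 lines. Their summed scaled intensity was 4468 in Swiss 3, 3122 in Swiss 5 and 3025 in Swiss 22. Just 1 such marker passed the test, Lyz2, which encodes lysozyme, at 797, 946 and 872 in Swiss 3 replicates 1 to 3 against 170 to 385 in the 6 others (3.33-fold). In such bulk RNA, fewer cells of a kind and less RNA per cell cannot be told apart.

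Swiss 3 differed from the mean of the other non-adipogenic lines in 3350 genes. Of 18193 genes, 1614 were higher in Swiss 3 than the mean of Swiss 5 and Swiss 22 (8.87%) and 1736 were lower (9.54%), by limma on log2 values with Benjamini-Hochberg adjusted p under 0.05. At an unadjusted p under 0.05 the count was 5276. With the bright Swiss 3 array alone, which leaves only bright arrays in the fit, 865 genes were higher (4.75%) and 922 lower (5.07%). That fit has 1 Swiss 3 array, so its spread comes from the Swiss 5 and Swiss 22 arrays only and the lone array is assumed to vary like them, as in every count given below for the bright array alone. With the dim pair alone, 1380 were higher (7.59%) and 1516 lower (8.33%). Every called gene had the same sign in the dim pair and in the bright array, which are parts of the same fit. No gene differed between the dim pair and the bright array after limma's adjustment (smallest adjusted p = 0.348), although 1550 did at an unadjusted p under 0.05, and 2446 genes were called under centring and 5086 without normalization.

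Each of the other lines had fewer calls with quantile normalization. Swiss 5 against the mean of the other 2 gave 792 genes higher (4.35%) and 790 lower (4.34%), and Swiss 22 gave 493 higher (2.71%) and 420 lower (2.31%). Among bright arrays alone, with 1 Swiss 3 array, Swiss 5 gave 590 (3.24%) and 647 (3.56%) and Swiss 22 gave 329 (1.81%) and 269 (1.48%). These comparisons share their arrays, so their counts stand side by side with no test between them. The order rests on the scaling, since under centring Swiss 22 had 8618 calls and without normalization 10144. The count for Swiss 22, 913 in all, was 310, 427 and 315 without its replicates 1, 2 and 3, and that for Swiss 5, 1582 in all, was 888 without its replicate 2. Against Swiss 5 alone Swiss 3 had 1449 genes higher (7.96%) and 1531 lower (8.42%), and against Swiss 22 alone 1205 higher (6.62%) and 1365 lower (7.5%). A gene was higher in Swiss 3 than in each of the other lines singly in 859 cases (4.72%) and lower in 985 (5.41%).

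**Figure D1:**
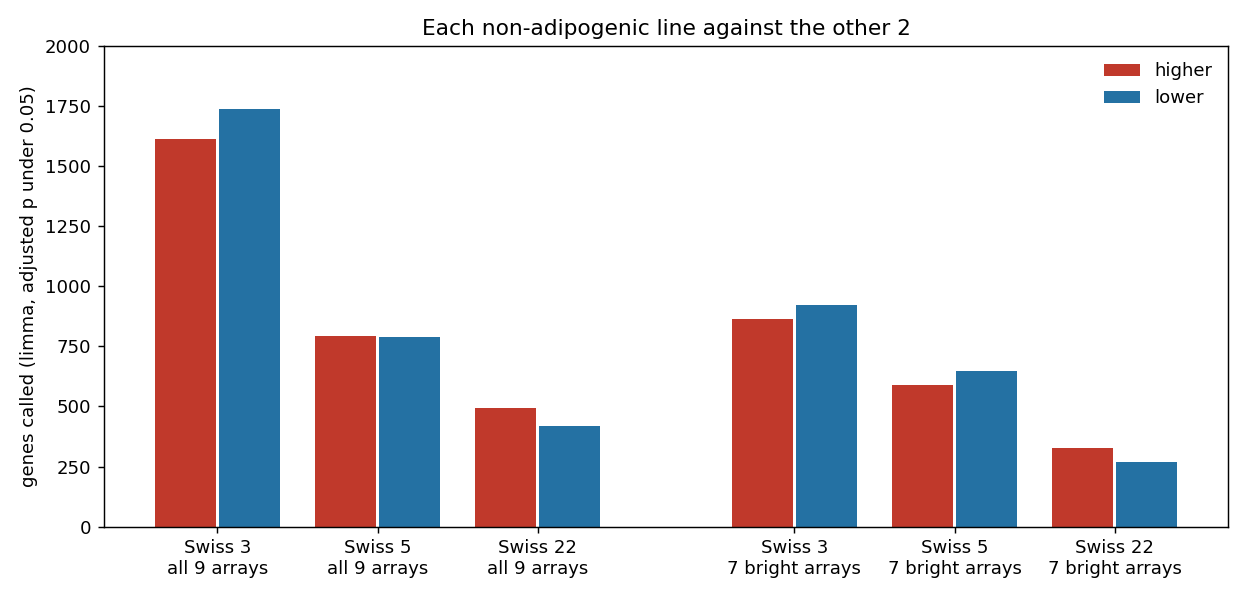
Number of genes called higher (red bars) and lower (blue bars) in each non-adipogenic line against the mean of the other 2, by limma with an adjusted p under 0.05, from all 9 arrays on the left and from the 7 bright arrays on the right. Swiss 3 gave 1614 and 1736 calls from all arrays and 865 and 922 from the bright arrays, more than either other line in both settings, although Swiss 22 had 8618 calls when arrays were centred on their medians.

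Whether or not they were called, 1625 genes had all 3 Swiss 3 arrays above all 6 others (8.93%) and 1716 below (9.43%). For 1362 of the called genes all 3 Swiss 3 arrays lay above all 6 others (7.49% of genes) and for 1466 they lay below (8.06%), with the higher line above background. Of these 2828, 244 were at least 2-fold higher and 260 at least 2-fold lower. The preadipose lines gave a wider frame: in 714 and 717 of the 2828 genes the Swiss 3 arrays also lay beyond all 17 other arrays of the series, and over all genes 778 lay above (4.28%) and 756 below (4.16%). Taken instead over the 7 line means, where Swiss 3 is 1 value and is assumed to vary like the other clones, limma called 1 gene higher (0.0055%) and 0 lower, and 1708 genes had an unadjusted p under 0.05 (9.39%). That gene was Smoc2 (limma adjusted p = 0.0151). The fit over line means takes its spread largely from the preadipose lines. For Smoc2 their means lay near background, so the call says little about the spread among clones that express it. Over line means the count of calls ran from 0 under centring to 338 with bright arrays only.

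The scale between arrays set the balance of the calls. Quantile normalization makes all arrays equal in distribution, and the median difference over all genes was then -0.001. Centring each array on its log2 median instead moved that median to -0.15 and gave 671 higher and 7428 lower genes, and leaving the arrays unnormalized moved it to -0.39 and gave 26 and 9974. Linear scaling of intensities before the log left it at 0.08 and gave 1148 and 1184. Differences below are therefore relative to the rest of the array. Of all genes, 8.87% were higher and 9.54% lower with quantile normalization. List counts below stand beside these shares, or beside the all-gene counts above in the other settings. Set against genes of like level, 1 of the 182 named genes took the other sign under centring and without normalization, and 2 under linear scaling. Centring and no normalization differ only by a constant per array, so their relative values are the same by construction. Setting genes against others of like level also takes out any shift that such genes share.

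Interferon response genes formed one of the clearest groups on the high side. Of 39 measured, 25 were higher in Swiss 3 and 0 lower, where 8.87% of all genes were higher. Their median log2 difference was 0.57, and it remained above 0 under centring (0.31), without normalization (0.066) and under linear scaling (1.34), with 20 higher and 4 lower under centring and 9 and 9 without normalization. The median was 0.55 in the dim pair and 0.64 in the bright array, with which 24 of the 39 were called. All 25 were higher than in Swiss 5 and than in Swiss 22 singly (4.72% of all genes), and 19 lay above all 17 other arrays (4.28% of all genes).

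Ifit1, an antiviral protein that binds viral RNA lacking the host cap, is described first. Its scaled intensity, the deposited intensity scaled so that the trimmed mean of each array is 500, was 2973, 3169 and 3203 in Swiss 3, 381, 370.1 and 459.6 in Swiss 5 and 529.6, 430.7 and 518 in Swiss 22. Even the lowest Swiss 3 array was far above the highest of the others, and dim and bright arrays gave alike levels. The ratio of line means was 6.95, and the log2 difference was 1.92 ± 0.057 (SE, n = 3 arrays against 6), with limma adjusted p = 9.75e-08. In the preadipose lines Ifit1 lay between these levels, with line means of 755 to 1226.

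Gbp6, a guanylate-binding protein that attacks the vacuoles of intracellular pathogens, had 2156, 2553 and 2097 in Swiss 3. It had 260.0, 110.8 and 325 in Swiss 5 and 338, 520.4 and 368 in Swiss 22. The groups did not overlap, and the fold was 7.08 (log2 difference 1.77 ± 0.109, SE, limma adjusted p = 6.34e-06). Rtp4, an interferon-induced inhibitor of viral replication, had 1865, 2149 and 2301 in Swiss 3 against 170 to 575.5 in the other 6 arrays (5.75-fold). Relative to like-level genes its log2 difference was 1.57, and 0.92 with the mean of its probe sets. Ifit3, a partner of Ifit1, had 2401, 2240.0 and 2554 against 365 to 631 (5.0-fold).

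Several factors that carry the interferon signal were higher. Irf9, the DNA-binding subunit of the interferon-stimulated factor, had 1088, 1006 and 937 in Swiss 3, 330.1 to 374 in Swiss 5 and 251 to 292.5 in Swiss 22 (3.25-fold). Stat2, its partner, had 526, 738 and 983, with a highest value of 346 in the others (2.81-fold, limma adjusted p = 0.00812). Irf7, a master regulator of interferon genes, was 2.67-fold higher. Cxcl10, a chemokine that draws T cells, was 3.02-fold higher than in the other non-adipogenic lines, but its Swiss 3 mean of 616 was below that of Swiss 9, 692.

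Some members of the list did not pass. These were 14 of 39. Ifit2, which lies in the family of Ifit1, had 1489, 1525 and 1228 in Swiss 3, within or below the 1462 to 1619 of the others (log2 difference -0.052 ± 0.063, SE, limma adjusted p = 0.682). Mx1, a dynamin-like antiviral GTPase, was not above background in any of the 3 lines. Ddx58, the sensor RIG-I, had a log2 difference of 0.12 (limma adjusted p = 0.336) and Rsad2, or viperin, 0.14 (limma adjusted p = 0.334).

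The promoters of these genes carry a known response element, so 3 are printed to show it, as the 250 bases before the annotated start from RefSeq on GRCm38.p6, with matches on either strand to its core, which is GAAA, any 2 bases, GAAA, in capitals.
Ifit1: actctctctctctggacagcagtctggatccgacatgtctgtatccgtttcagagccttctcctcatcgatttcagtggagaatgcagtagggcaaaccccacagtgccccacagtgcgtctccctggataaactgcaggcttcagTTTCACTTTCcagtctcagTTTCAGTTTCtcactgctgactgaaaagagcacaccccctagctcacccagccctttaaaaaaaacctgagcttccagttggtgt
Ifit3: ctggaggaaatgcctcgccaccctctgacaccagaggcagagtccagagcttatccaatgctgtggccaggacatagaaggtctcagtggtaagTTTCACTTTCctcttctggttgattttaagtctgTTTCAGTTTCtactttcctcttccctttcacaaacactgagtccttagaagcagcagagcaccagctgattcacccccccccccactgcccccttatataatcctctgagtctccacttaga
Bst2: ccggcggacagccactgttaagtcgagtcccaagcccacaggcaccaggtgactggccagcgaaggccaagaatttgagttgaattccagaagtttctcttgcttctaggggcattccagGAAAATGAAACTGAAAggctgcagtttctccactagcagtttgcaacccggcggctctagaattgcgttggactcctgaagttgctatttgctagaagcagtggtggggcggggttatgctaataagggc
Ifit1 is read from chr19:34640639-34640888 on the + strand, Ifit3 from chr19:34583279-34583528 on the + strand and Bst2 from chr8:71537473-71537722 on the - strand. The matches begin 104 and 85 bases before the start in Ifit1 and 156 and 122 in Ifit3, and those of Bst2, at 130 and 124, overlap. Bst2, or tetherin, which holds budding virus at the cell surface, had 3141, 2842 and 3200 in Swiss 3 against 694.5 to 1216 in the other 6 arrays (3.53-fold). Within a window of 250 bases before to 50 after the start, this motif stood in 12 of the 20 called members with a promoter in the table (60%), in 4 of 8 members not called (50%) and in 1079 of all 27025 genes (3.99%). A match describes the sequence and does not show a bound factor.

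Antigen presentation genes followed in part. Of 24 measured, 11 were higher in Swiss 3 and 0 lower (8.87% and 9.54% of all genes). The median log2 difference was 0.16, and it fell below 0 under centring (-0.19) and without normalization (-0.43). Relative to like-level genes it was 0.16, the same in both settings by construction. The calls were 2 higher and 7 lower under centring, and 0 and 13 without normalization. Tapbp, or tapasin, which loads peptide onto class I molecules, had 7182, 6316 and 5922 in Swiss 3 and 3121 to 4348 in the others (1.69-fold). Psme1, a proteasome activator subunit, was 1.53-fold higher and Psmb8, an immunoproteasome subunit, 1.83-fold higher, although a second probe set for Psmb8 gave -0.074. B2m, the light chain of class I molecules, had 41860, 37870 and 37890 in Swiss 3 against 22010 to 27720 (1.55-fold). The class II invariant chain Cd74 overlapped between the groups (log2 difference 0.011, limma adjusted p = 0.973). Class I heavy chain genes resemble each other closely, so a probe set of H2-K1 or H2-D1 may read more than 1 of them.

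**Figure D2:**
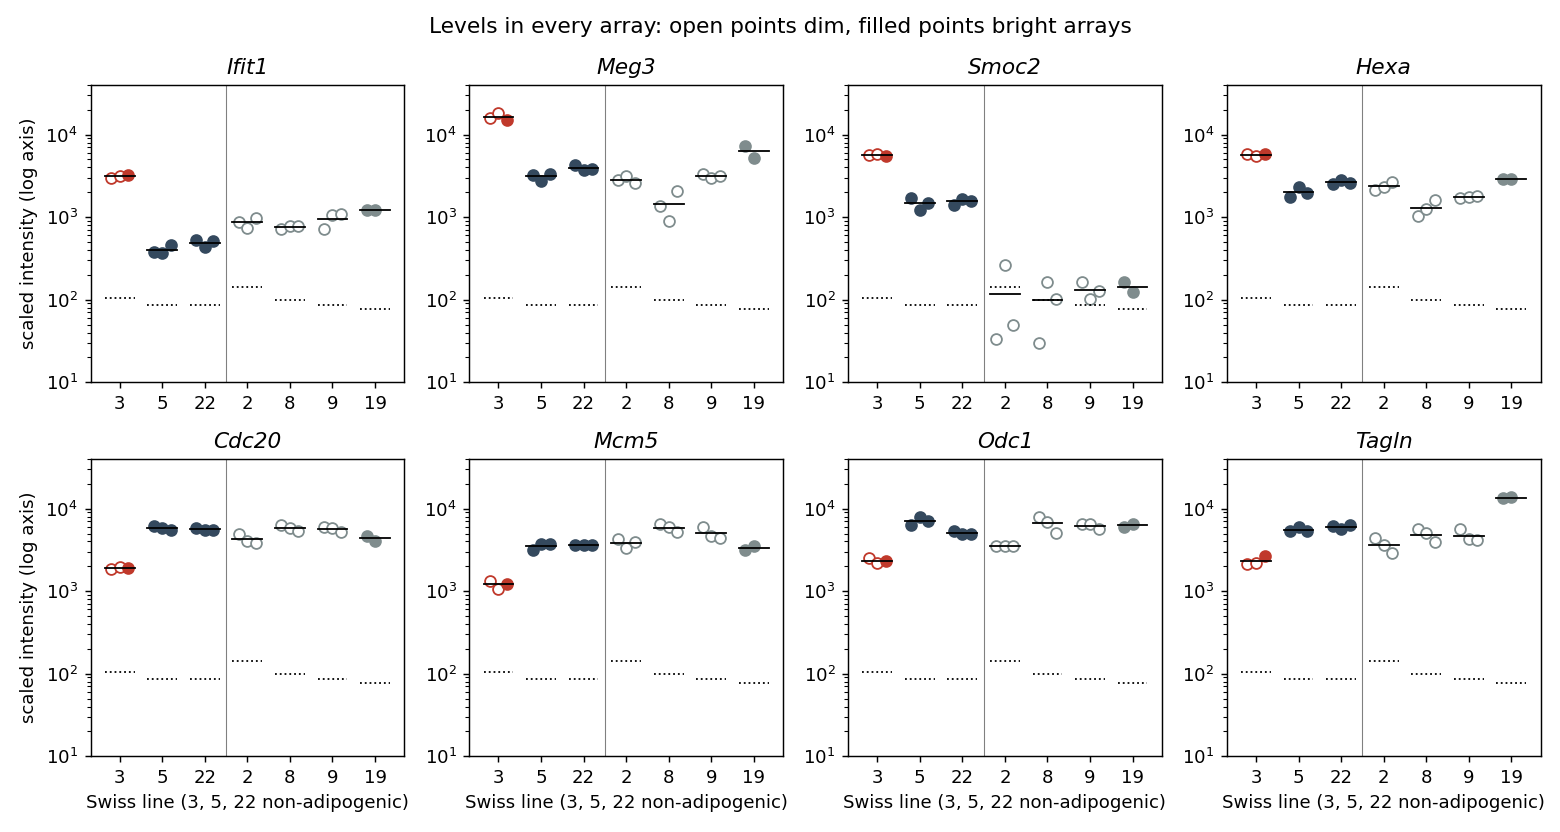
Scaled intensity (log axis) of 8 genes in every array of the 7 lines, with open points for dim and filled points for bright arrays, a solid bar for the line mean and a dotted bar for the background of the line. In Ifit1, Meg3, Smoc2 and Hexa all 3 Swiss 3 arrays (red) lie above the 17 others, and in Cdc20, Mcm5, Odc1 and Tagln they lie below them; without normalization the log2 difference of Hexa is -0.018.

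Lysosomal genes were the second broad group on the high side. Of 49 measured, 36 were higher in Swiss 3 and 0 lower (8.87% of all genes were higher), and 32 lay above all 17 other arrays of the series (4.28% of all genes). The median log2 difference was 0.54, 0.49 in the dim pair and 0.51 in the bright array. It was -0.19 under centring and -0.43 without normalization, where like-level genes also shifted. The relative median was 0.53, the same in both by construction. Calls turned with the unadjusted median, to 2 higher and 14 lower under centring and 0 and 26 without normalization. Under linear scaling the median was 0.67, with 33 higher and 0 lower. This list was put together after values of these data had been seen, so its count is a description.

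Enzymes that break down glycolipids and proteins were among them. Hexa, the alpha subunit of beta-hexosaminidase, had 5857, 5462 and 5845 in Swiss 3, 1763, 2335 and 1989 in Swiss 5 and 2516, 2832 and 2624 in Swiss 22. No array of either group overlapped, and the fold was 2.44 (log2 difference 1.21 ± 0.075, SE, limma adjusted p = 6.57e-06, and -0.018 without normalization). Tpp1, a tripeptidyl peptidase, was 2.06-fold higher, with a log2 difference of 1.08 that was -0.025 under centring and -0.27 without normalization. Dpp7, a dipeptidyl peptidase, had 3131, 3594 and 3312 in Swiss 3 against 1029 to 1750.0 (2.58-fold).

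Membrane and regulatory members are next. Lamp1, a major membrane protein of the lysosome, had 32790, 33930 and 33580 in Swiss 3 against 18940 to 21760 (1.64-fold). Grn, or progranulin, a secreted and lysosomal protein, was 1.94-fold higher, and Psap, the precursor of the saposins, 1.72-fold. Tfeb, the transcription factor that drives many of these genes, did not pass: its 3 Swiss 3 arrays had 501.1, 253 and 104, and the log2 difference was 0.21 ± 0.145 (SE, limma adjusted p = 0.416). Ctss, a cathepsin typical of antigen-presenting cells, was not above background in any of the 3 lines.

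TFEB and its relatives recognize a site called CLEAR, so a pair of promoters that hold its core, TCACGTGA (the same on both strands), are printed in the same way.
Ctsa: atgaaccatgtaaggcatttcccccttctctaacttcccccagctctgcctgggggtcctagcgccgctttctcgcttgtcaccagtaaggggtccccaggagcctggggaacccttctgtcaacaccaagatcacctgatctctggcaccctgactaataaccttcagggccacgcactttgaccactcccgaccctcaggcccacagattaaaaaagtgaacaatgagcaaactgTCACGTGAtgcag
Dpp7: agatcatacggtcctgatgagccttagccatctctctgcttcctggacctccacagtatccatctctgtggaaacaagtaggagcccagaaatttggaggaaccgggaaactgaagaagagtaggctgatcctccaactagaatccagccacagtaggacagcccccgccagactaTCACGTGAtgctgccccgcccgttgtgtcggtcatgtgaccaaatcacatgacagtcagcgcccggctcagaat
Ctsa, the protective protein of neuraminidase and beta-galactosidase, is read from chr2:164833523-164833772 on the + strand and Dpp7 from chr2:25356333-25356582 on the - strand. The match begins 13 bases before the start in Ctsa and 74 in Dpp7. In Swiss 3 Ctsa had 5573, 6426 and 5938, against 2870.0 to 3426 in the others (1.97-fold), while 1 of its 2 probe sets had the other sign. The core stood in 6 of 34 called members (17.6%), in 0 of 10 members not called and in 304 of 27025 genes (1.12%).

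Proteases that cut the matrix outside the cell and their inhibitors formed 1 list. Of 42 matrix proteases and inhibitors, 18 were higher in Swiss 3 and 2 lower (8.87% and 9.54% of all genes). The median log2 difference was 0.19, and it was -0.22 under centring and -0.46 without normalization. Relative to like-level genes it was 0.17, the same in both by construction. The calls were 2 higher and 18 lower under centring, and 0 and 27 without normalization. Mmp14, the membrane-bound collagenase that activates MMP2, had 5529, 6264 and 5564 in Swiss 3 against 1726 to 2488 in the others, and no array overlapped. Its fold was 2.64 (log2 difference 1.29 ± 0.085, SE, limma adjusted p = 8.44e-06).

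Ctsk, a collagen-degrading cathepsin, had 2555, 2640.0 and 2557 in Swiss 3, 1211 to 1377 in Swiss 5 and 519.5 to 678 in Swiss 22 (2.77-fold). Ctsb, a broad lysosomal protease, had 23950, 24180 and 24350 against 10350 to 12530 (2.09-fold), with a log2 difference of 1.02 that was -0.012 under centring and -0.25 without normalization. The 2 lower genes were the metalloproteinase inhibitors Timp3 and Timp1. Timp3 had 697, 887 and 826 in Swiss 3, 1781 to 2030.0 in Swiss 5 and 3063 to 3430.0 in Swiss 22 (3.2-fold lower), and Swiss 2, with a mean of 669, was lower still. Timp1 was 1.67-fold lower (log2 difference -0.61 ± 0.062, SE, limma adjusted p = 0.000101).

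A handful of imprinted genes, which are read from 1 parental allele, were among those that differed most. Of 33 measured, 8 were higher in Swiss 3 and 0 lower (8.87% and 9.54% of all genes), and the calls were 4 higher and 10 lower under centring and 3 and 11 without normalization. The median log2 difference was 0.035 (-0.14 without normalization), near the all-gene median of -0.001. Meg3, a maternally expressed long noncoding RNA of the Dlk1 domain, had 16050, 18130 and 14980 in Swiss 3. It had 3279, 2769 and 3379 in Swiss 5 and 4287, 3754 and 3885 in Swiss 22. No other array of the series reached the Swiss 3 values, and the fold was 4.61 (log2 difference 2.13 ± 0.078, SE, limma adjusted p = 5.57e-07). All 11 probe sets of Meg3 had the same sign, from 0.44 to 2.37.

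The neighbours of Meg3 in that imprinted domain did not all go with it. Mirg, a host RNA for microRNAs, was 3.05-fold higher (1530.0, 1880 and 1534 in Swiss 3 against 328 to 678). Rian, which lies between them, had 3212, 2919 and 3149, above Swiss 5 and below Swiss 22, and did not pass (log2 difference 0.041 ± 0.101, SE, limma adjusted p = 0.861). Dlk1, the paternally expressed inhibitor of fat cell formation, had 18570, 19180 and 18060 in Swiss 3, near or just above the top of the 12780 to 19050 of Swiss 5 and below the 29140 to 31760 of Swiss 22. It did not pass (log2 difference -0.21, limma adjusted p = 0.17).

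Plagl1, a zinc finger factor that halts the cell cycle, had 4302, 5303 and 4464 in Swiss 3 against 553 to 1048 in the others (5.82-fold). In the preadipose lines its means were 43.5 to 202. Mest, a hydrolase-like protein linked to mesoderm and fat, separated all 3 lines: 3611, 3517 and 2643 in Swiss 3, 1560 to 1769 in Swiss 5 and 98.7 to 181 in Swiss 22. Impact, a regulator of translation, had 6659, 9302 and 8560 against 2457 to 3924 (2.7-fold). Relative to like-level genes, the log2 differences of Plagl1 and Impact were 2.00 and 1.40. With the mean of all probe sets of each gene they were 0.90 and 0.71. Igf2 did not pass, since Swiss 3 lay between Swiss 5 and Swiss 22 (line means 243, 97.9 and 558.5).

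Several matrix genes were higher in Swiss 3. Smoc2, a secreted calcium-binding matricellular protein, had 5705, 5775 and 5449 in Swiss 3, 1708, 1210 and 1482 in Swiss 5 and 1413, 1668 and 1581 in Swiss 22. Its fold was 3.74 (log2 difference 1.66 ± 0.077, SE, limma adjusted p = 1.82e-06). The preadipose lines had means of 98.6 to 142, near their backgrounds of 76.5 to 143. Smoc2 was thus well measured in all 3 non-adipogenic lines and highest in Swiss 3.

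Dpt, or dermatopontin, a small protein that binds decorin and collagen, had 8722, 10990 and 9227 in Swiss 3 against 1540 to 3011 (4.71-fold). Dcn, or decorin, the proteoglycan that coats collagen fibrils, had 50770, 55360 and 55820 against 15260 to 28360 (2.57-fold). Postn, or periostin, was 2.27-fold higher, with Swiss 22 nearer to it (1874 to 2758) than Swiss 5 (745.5 to 972), and its log2 difference of 1.11 was -0.011 without normalization. Over all 52 proteoglycans and matrix glycoproteins 12 were higher and 10 lower (8.87% and 9.54% of all genes), with a median of 0.015. The calls were 5 and 25 under centring and 2 and 31 without normalization.

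Fap, a surface protease of activated fibroblasts, had 4923, 5174 and 4641 in Swiss 3, 1189 to 1407 in Swiss 5 and 572 to 637 in Swiss 22. The groups were far apart (5.18-fold, log2 difference 1.96 ± 0.058, SE, limma adjusted p = 9.75e-08). Fn1, or fibronectin, another fibroblast marker, went the other way by 1.92-fold, but only 1 of its 2 probe sets had that sign. S100a4 had a log2 difference of -0.65, but -0.35 under linear scaling, where it did not pass (limma adjusted p = 0.123). The main fibrillar collagens did not pass, with log2 differences of -0.09 for Col1a1 and -0.096 for Col1a2. Of 24 collagens, 5 were higher and 1 lower (8.87% and 9.54% of all genes), with 0 and 13 under centring and 0 and 17 without normalization. Among the higher ones were Col6a1 and Col6a2 (1.62-fold each, log2 difference 0.78 and 0.79) and Col3a1 (1.52-fold, log2 difference 0.59). These 3 were below 0 under centring (-0.33, -0.29 and -0.45) and without normalization (-0.57, -0.53 and -0.69).

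Secreted proteins outside the matrix also stood out. Clu, or clusterin, an extracellular chaperone and complement inhibitor, had 5862, 6384 and 7158 in Swiss 3, 1530.0 to 1987 in Swiss 5 and 855 to 1015 in Swiss 22 (4.82-fold). The classical complement proteases C1s1 and C1ra were 2.28-fold and 2.06-fold higher, with log2 differences of 1.17 and 1.02 that were -0.09 and -0.23 without normalization. Of 21 complement genes 6 were higher and 0 lower (8.87% and 9.54% of all genes), with 2 and 3 under centring and 1 and 6 without normalization. Selenop, the plasma selenium carrier, had 14930, 17800 and 18350 against 2448 to 8336 (3.25-fold). Ptn, or pleiotrophin, a heparin-binding growth factor, had 71490, 77850 and 83900 against 23630 to 33500.0 (2.66-fold).

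Other genes with a large difference had no list. Limch1, an actomyosin regulator, was 4.88-fold higher in Swiss 3 (4830.0, 5258 and 4654 against 660 to 1372). Malat1, an abundant nuclear noncoding RNA, was 3.99-fold higher than in Swiss 5 and Swiss 22 (31980, 30990 and 24670 against 6201 to 8260), but Swiss 19 and Swiss 2 had means of 24220 and 22060. Slc4a4, a sodium bicarbonate cotransporter, had 2481, 2196 and 1907 against 356 to 684 (4.59-fold).

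**Figure D3:**
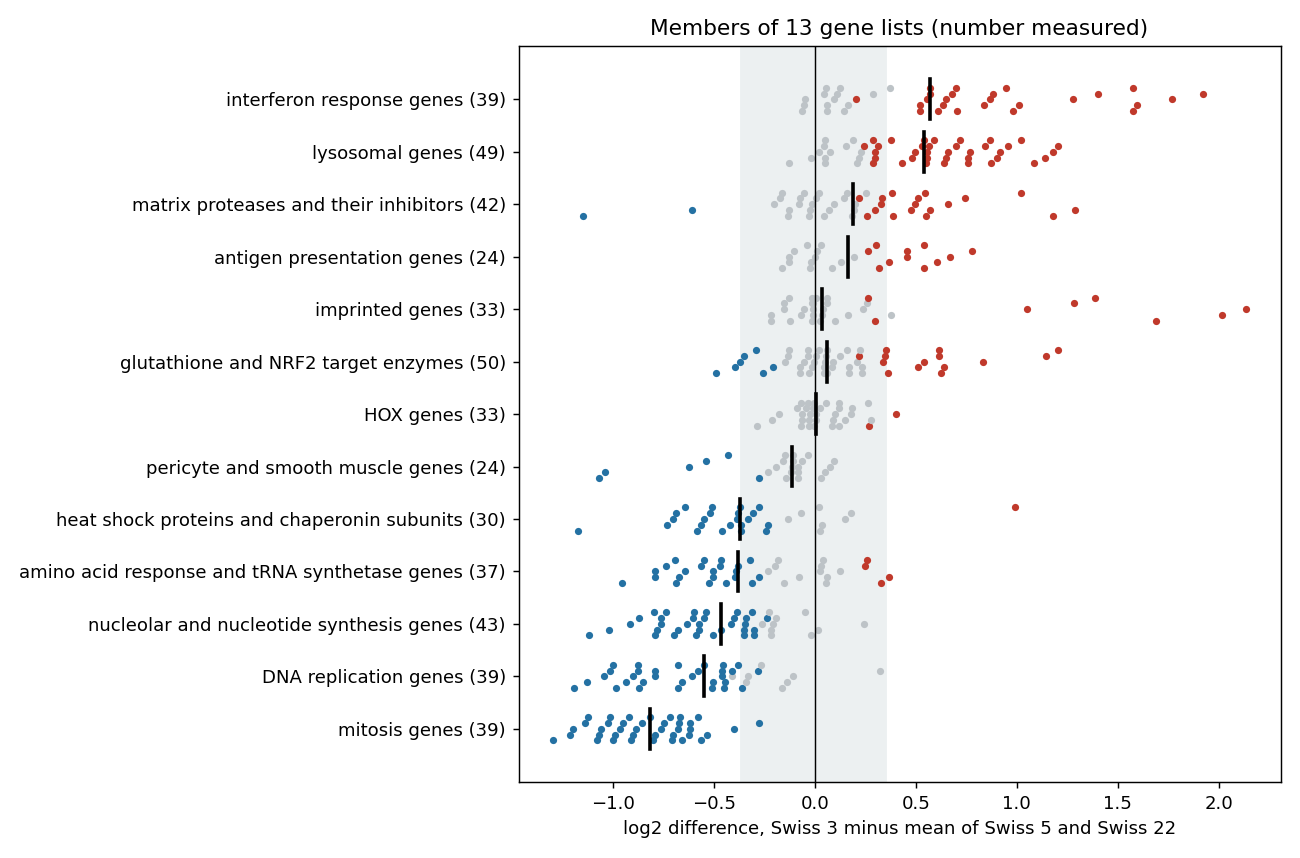
Log2 difference between Swiss 3 and the mean of Swiss 5 and Swiss 22 for each member of 13 gene lists (number measured in brackets), with called genes in red where higher and in blue where lower, grey points for genes not called, a black bar for the list median and a grey band from the 5th to the 95th percentile of all genes (-0.36 to 0.35). The medians of the interferon and lysosomal lists (0.57 and 0.54) lie to the right of the band and those of mitosis, DNA replication, nucleolar, amino acid and heat shock genes to its left; the lysosomal, protease, antigen presentation and glutathione medians are below 0 under centring and without normalization, and the imprinted and HOX medians without normalization.

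On the low side were the cell division genes. All 39 mitosis genes measured were lower in Swiss 3, where 9.54% of all genes were lower, and 32 lay below all 17 other arrays of the series (4.16% of all genes). Their median log2 difference was -0.82, and it was -1.59 under centring, -1.83 without normalization and -1.28 under linear scaling. In the dim pair the median was -0.84 and in the bright array -0.79, with which 35 were called. Singly against each of Swiss 5 and Swiss 22, 36 were lower (5.41% of all genes), and 38 had an unadjusted p under 0.05 over the 7 line means (9.39% of all genes).

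Cdc20, which activates the anaphase-promoting complex, had 1877, 1940.0 and 1921 in Swiss 3. It had 6212, 5875 and 5468 in Swiss 5 and 5885, 5534 and 5522 in Swiss 22. The Swiss 3 arrays agreed closely with each other, dim or bright, and the level was 3.01-fold lower (log2 difference -1.30 ± 0.056, SE, limma adjusted p = 1.02e-06). Top2a, the topoisomerase that untangles chromosomes, had 1987, 1893 and 1757 against 4743 to 5848 (2.83-fold lower), while 1 of its 3 probe sets lay at 0.013. Ccna2, or cyclin A2, was 2.81-fold lower and Kif23, a kinesin of cytokinesis, 3.54-fold lower. Relative to like-level genes the log2 difference of Kif23 was -1.13, and -0.54 with the mean of its probe sets.

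Mki67, the proliferation marker Ki-67, had 1093, 1192 and 1225 in Swiss 3, 2461 to 2740.0 in Swiss 5 and 2959 to 3486 in Swiss 22 (2.49-fold lower). The weakest members of the list were Kif4 (log2 difference -0.28) and Cdkn3 (-0.40), and both passed. The 4 preadipose lines had Cdc20 and Mki67 levels like those of Swiss 5 and Swiss 22 rather than Swiss 3, as the plot of levels by line shows for Cdc20.

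Many mitotic promoters hold the cell cycle homology region, TTTGAA or its reverse complement, close to the start, and the promoters of a pair of members are printed to show it.
Cdc20: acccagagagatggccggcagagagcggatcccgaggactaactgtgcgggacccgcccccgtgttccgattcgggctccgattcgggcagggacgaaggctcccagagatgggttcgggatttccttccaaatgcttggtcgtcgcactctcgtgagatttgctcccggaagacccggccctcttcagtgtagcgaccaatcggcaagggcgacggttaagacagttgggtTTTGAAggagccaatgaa
Ube2c: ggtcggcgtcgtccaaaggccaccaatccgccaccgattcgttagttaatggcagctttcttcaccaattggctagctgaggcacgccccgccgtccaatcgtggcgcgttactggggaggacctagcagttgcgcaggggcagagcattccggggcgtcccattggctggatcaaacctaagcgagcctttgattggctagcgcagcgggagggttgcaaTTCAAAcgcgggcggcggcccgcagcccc
Cdc20 is read from chr4:118437344-118437593 on the - strand and Ube2c, the ubiquitin-conjugating enzyme of the same complex, from chr2:164769679-164769928 on the + strand. The match begins 18 bases before the start in Cdc20 and 29 in Ube2c. Ube2c had 2650.0, 2258 and 2235 in Swiss 3 against 4955 to 6226 in the others (2.35-fold lower). The motif stood in 23 of the 31 members with a promoter in the table (74.2%), all of them called, and in 5466 of 27025 genes (20.2%).

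Most DNA replication genes were lower too. Of 39 measured, 31 were lower and 0 higher (9.54% and 8.87% of all genes). The median log2 difference was -0.55 and was below 0 under every scaling (-1.29 under centring, -1.53 without normalization, -0.92 under linear scaling). With the bright array alone 25 were called. Mcm5, a subunit of the replicative helicase, had 1335, 1076 and 1214 in Swiss 3, 3160.0, 3715 and 3771 in Swiss 5 and 3644, 3622 and 3625 in Swiss 22. It was 2.97-fold lower (log2 difference -1.19 ± 0.074, SE, limma adjusted p = 6.57e-06), with no overlap of arrays.

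Rrm2, the limiting subunit of ribonucleotide reductase, had 1423, 1562 and 1477 in Swiss 3 against 3272 to 4938 (2.73-fold lower). Tk1, or thymidine kinase, was 2.56-fold lower and Mcm3 2.67-fold lower. Pcna, the sliding clamp of the polymerases, had 6317, 6215 and 6324, against 11330 to 12430 in Swiss 5 and 9256 to 9992 in Swiss 22 (1.7-fold lower). Not every S phase gene passed: Tyms, E2f1 and Ung had log2 differences of -0.27, -0.16 and -0.14, and Orc1 was at 0.32 without passing.

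One replication promoter, that of Mcm6, is printed because it holds the E2F letters TTTNGCGC at several places on both strands.
Mcm6: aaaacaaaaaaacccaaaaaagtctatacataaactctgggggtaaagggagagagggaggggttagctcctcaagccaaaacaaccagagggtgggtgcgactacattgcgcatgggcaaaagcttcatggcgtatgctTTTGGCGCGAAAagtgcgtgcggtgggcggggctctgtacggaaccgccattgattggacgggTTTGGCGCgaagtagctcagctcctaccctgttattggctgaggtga
It is read from chr1:128359706-128359955 on the - strand, and the 3 matches begin 110, 106 and 47 bases before the start, the first of them overlapping the next. Mcm6, a further subunit of the helicase, had 1139, 1374 and 1125 in Swiss 3 against 2270 to 3031 (2.14-fold lower). The motif stood in 9 of 26 called members (34.6%), in 1 of 7 not called (14.3%) and in 424 of 27025 genes (1.57%). None of the 4 motifs searched contains another.

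Genes that restrain the cycle were read as a further list. Of 35 cell cycle inhibitors and p53 targets, 13 were higher and 5 lower (8.87% and 9.54% of all genes), but 0 were higher and 21 lower under centring and 0 and 28 without normalization. The list had a median of 0.13 that was -0.41 under centring and -0.65 without normalization. Relative to like-level genes it was 0.11, the same in both by construction. Cdkn2c, the CDK4 and CDK6 inhibitor p18, had 5446, 6274 and 5955 in Swiss 3 against 3614 to 3834 (1.58-fold), with a log2 difference of 0.67 that was -0.37 under centring and -0.61 without normalization. Btg2, an antiproliferative p53 target, was 2.05-fold higher (3065, 3177 and 3043 against 1308 to 1749), with a log2 difference of 0.88 and -0.24 without normalization. Plk2, a stress-induced kinase of the same list, was 2.35-fold lower. Cdkn2a, the locus of p16 and p19, had 486.5, 700.4 and 628 against 596 to 937 and did not pass (log2 difference -0.22, limma adjusted p = 0.12).

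Genes for ribosome assembly and nucleotide synthesis were mostly lower as well. Of 43 measured, 33 were lower and 0 higher (9.54% and 8.87% of all genes). The median log2 difference was -0.47, and it was -1.27 under centring, -1.51 without normalization and -0.68 under linear scaling. Over all genes those 3 medians were -0.15, -0.39 and 0.08. This list, too, was put together after values had been seen. Odc1, the first enzyme of polyamine synthesis and a MYC target, had 2515, 2218 and 2325 in Swiss 3, 6388, 7836 and 7094 in Swiss 5 and 5323, 4927 and 4990.0 in Swiss 22. It was 2.59-fold lower (log2 difference -1.12 ± 0.075, SE, limma adjusted p = 8.95e-06). Srm, the spermidine synthase, was 2.27-fold lower.

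Mthfd1l, a mitochondrial enzyme of folate metabolism, was 4.25-fold lower, but its 3 Swiss 3 arrays ranged from 44.0 to 341, across the background. Gar1, a component of the particles that modify ribosomal RNA, was 2.45-fold lower. Myc, the transcription factor that drives many genes of this kind, had 609, 601 and 690.2 in Swiss 3 against 985 to 1695 (2.08-fold lower, log2 difference -0.65 ± 0.088, SE, limma adjusted p = 0.000576). With the bright array alone, Myc passed at a limma adjusted p of 0.0447.

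Genes of amino acid supply were mostly lower too. Of 37 amino acid response and tRNA synthetase genes, 22 were lower and 4 higher (9.54% and 8.87% of all genes). The median was -0.38 and was below 0 under every scaling (-1.12 under centring, -1.36 without normalization, -0.51 under linear scaling). Psat1, an enzyme of serine synthesis, had 2721, 2543 and 2633 in Swiss 3, 6138 to 6774 in Swiss 5 and 5196 to 5628 in Swiss 22 (2.25-fold lower). Asns, or asparagine synthetase, was 2.03-fold lower (1980, 2136 and 1857 against 3520 to 4577). Mthfd2 and Shmt2, the mitochondrial enzymes of one-carbon metabolism, were 2.27-fold and 2.13-fold lower. Atf4, the transcription factor of this response, was 1.42-fold lower (log2 difference -0.40). The 4 higher members were Ddit3, Vldlr, Sars and Nupr1, at log2 differences of 0.37, 0.33, 0.26 and 0.25. No member was called higher in the other scalings. The calls were 0 higher and 34 lower under centring, 0 and 35 without normalization and 0 and 22 under linear scaling.

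Protein-folding chaperones of the cytosol and mitochondria come next. Of 30 heat shock proteins and chaperonin subunits, in another list built after values had been seen, 22 were lower and 1 higher (9.54% and 8.87% of all genes). The median was -0.37, with -1.37 under centring, -1.61 without normalization and -0.49 under linear scaling. Hsph1, a large HSP110 chaperone, had 1648, 1610 and 1948 in Swiss 3, 5434 to 6062 in Swiss 5 and 3767 to 3980 in Swiss 22 (2.81-fold lower). Hspd1, the mitochondrial chaperonin HSP60, was 1.76-fold lower. The 1 higher member was Hspb1, the small heat shock protein HSP27, at 13090, 13490 and 13110 against 9069 to 9634 in Swiss 5 and 4900.0 to 5214 in Swiss 22 (1.84-fold higher, log2 difference 0.99 ± 0.051, SE, and -0.12 under centring).

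In the unfolded protein response of the endoplasmic reticulum 7 of 25 genes were lower and 1 higher (9.54% and 8.87% of all genes). Under centring 23 were lower and 0 higher, and without normalization 25 and 0. Of all 18193 genes, 7428 were lower under centring and 9974 without normalization. Dnajb11, a cofactor of the chaperone BiP, was 1.92-fold lower, and Pdia6, a disulfide isomerase, 1.6-fold lower. Selenok, a selenoprotein of that membrane, was 1.43-fold higher, with a log2 difference of 0.58 that was -0.51 under centring and -0.75 without normalization.

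Some contractile and adhesion genes were lower, where 9.54% of all genes were lower and 8.87% higher. Of 24 pericyte and smooth muscle genes, 6 were lower and 0 higher, 6 were lower with the bright array alone, and the list median was -0.12. Tagln, or SM22, an actin-binding protein of contractile cells, had 2158, 2203 and 2695 in Swiss 3 against 5325 to 6394 in the others (2.48-fold lower, log2 difference -1.07 ± 0.076, SE, limma adjusted p = 1.09e-05). Acta2, or smooth muscle actin, had 18590, 16910 and 15800 against 33450 to 37360 (2.05-fold lower). Relative to like-level genes its log2 difference was -1.03, and -0.36 with the mean of its probe sets. The remaining members called were Myl9, Tpm2, Actg2 and Cald1, at log2 differences of -0.62, -0.54, -0.43 and -0.28.

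Tnfrsf12a, the TWEAK receptor Fn14, had the most negative log2 difference of all genes named: 1362, 1913 and 1944 in Swiss 3 against 6482 to 8340.0 in Swiss 5 and 4220.0 to 4670.0 in Swiss 22 (3.34-fold lower, log2 difference -1.39 ± 0.098, SE, limma adjusted p = 1.07e-05). Emp1, an epithelial membrane protein, was 3.37-fold lower by its brighter probe set, and its other probe set gave 0.13. Ltbp1, which stores latent TGF-beta in the matrix, had 315, 390.0 and 284 against 1105 to 1206 (3.52-fold lower), although 1 of its 3 probe sets lay at 0.002. Cd44, the hyaluronan receptor, was 2.28-fold lower (1770, 1674 and 1542 against 3515 to 4228). Of 41 integrins, cadherins and adhesion receptors 11 were lower and 1 higher (9.54% and 8.87% of all genes), with Cdh2, or N-cadherin, 1.79-fold lower.

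Serum-induced genes had calls both ways, where 8.87% of all genes were higher and 9.54% lower. Of 35 immediate early and serum response genes, 9 were lower and 5 higher, but 25 were lower and 0 higher under centring and 26 and 0 without normalization. Fosl1, an AP-1 subunit, had 567, 258 and 529 in Swiss 3 against 856 to 1378 (2.58-fold lower). Dusp6, a phosphatase induced by ERK signalling, had 269, 27.3 and 215, the lowest of them below background, against 378 to 717 (3.08-fold lower). Spry2, another ERK feedback gene, was 1.73-fold higher by its brighter probe set, with a log2 difference of 0.77 that was -0.23 under centring and -0.47 without normalization, and its other probe set gave -0.12.

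Metabolic lists depended on the scaling, and with quantile normalization 8.87% of all genes were higher and 9.54% lower. Of 50 glutathione and NRF2 target enzymes, 14 were higher and 7 lower (median 0.06, and -0.48 under centring), and the calls were 1 higher and 30 lower under centring and 0 and 36 without normalization. Gsta4, a glutathione transferase that removes products of lipid peroxidation, had 11200, 11540 and 12320 against 4775 to 5817 (2.19-fold, and -0.18 without normalization on the log2 scale). Gstm1 was 2.35-fold higher with a log2 difference of 1.21 (-0.09 without normalization), and since Gstm genes are near copies its probe sets may read more than 1 of them. Among the lower ones were Txnrd1, Gsr and Gclc, enzymes that keep thioredoxin and glutathione reduced or make glutathione, at log2 differences of -0.49, -0.37 and -0.35.

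Of 36 glycolysis and hypoxia genes 8 were lower and 2 higher (9.54% and 8.87% of all genes), with 27 and 0 under centring. Ldha, or lactate dehydrogenase A, had 10870, 10710 and 10750 in Swiss 3 against 18610 to 21300 in the others (1.86-fold lower, log2 difference -0.82 ± 0.052, SE, limma adjusted p = 6.73e-06). Of 27 genes of fatty acid oxidation and PPAR targets 8 were higher and 0 lower (8.87% and 9.54% of all genes), with 1 and 21 under centring and 0 and 25 without normalization. Ech1 was 1.64-fold higher. Of 24 cholesterol synthesis genes 7 were higher and 1 lower, with 0 and 19 under centring and 0 and 23 without normalization. Retinoid enzymes went both ways: Aldh1a1, which makes retinoic acid, had 535, 405 and 464 against 1360.0 to 2500.0 (4.35-fold lower), and Dhrs3, which lowers retinaldehyde, was 2.29-fold higher (log2 difference 1.08, and -0.10 without normalization).

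Fat cell genes gave small counts both ways, where 8.87% of all genes were higher and 9.54% lower. Of 26 adipogenic regulators, 3 were higher and 3 lower, with 3 and 14 under centring and 0 and 18 without normalization. Pparg, the receptor that directs fat cell formation, had 428, 410 and 574 in Swiss 3 against 175 to 322 in the others (1.91-fold, log2 difference 0.33 ± 0.084, SE, limma adjusted p = 0.0218). That call was lost without Swiss 3 replicate 3 (limma adjusted p = 0.0912) and without Swiss 22 replicate 1 (limma adjusted p = 0.0519), and the difference was -0.15 without normalization. Of 23 mature adipocyte genes 5 were higher and 2 lower, with 4 and 7 under centring and 0 and 12 without normalization. Lpl, or lipoprotein lipase, had 455, 536.5 and 682 against 127 to 270 (3.05-fold), far below the preadipose line means of 1292 to 5079. Fabp4, a fatty acid carrier, was 1.39-fold higher (log2 difference 0.36, and -0.36 under centring), and Swiss 19 had a higher mean, 1767 against 1359.

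With quantile normalization, signalling lists gave calls both ways and HOX genes only higher ones, where 8.87% of all genes were higher and 9.54% lower. Among Wnt genes 7 of 50 were higher (14%) and 4 lower (8%), with 3 and 14 under centring and 0 and 27 without normalization. Sfrp1, a secreted Wnt antagonist, had 2359, 2009 and 2052 against 408 to 1453 (2.35-fold, and -0.011 without normalization on the log2 scale). Cdon, a Hedgehog co-receptor, was 2.24-fold higher (log2 difference 1.13, and -0.11 without normalization). Of 35 growth factor signal genes 8 were higher and 5 lower, with 0 and 18 under centring and 0 and 27 without normalization. Vegfb was 2.13-fold higher (-0.19 without normalization on the log2 scale) and Ereg, or epiregulin, was 2.33-fold lower. Among HOX genes, which record body position, 2 of 33 were higher (6.06%, below the share of all genes) and 0 lower, with 1 and 5 under centring and 0 and 11 without normalization. In the circadian list Nr1d1, the repressor REV-ERB alpha, had 147, 251 and 169 in Swiss 3 against 287.5 to 974 (3.6-fold lower), while the preadipose lines, with means of 168 to 272.5, were as low as Swiss 3.

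Position along the chromosomes was also read. Over 13530 windows of 31 neighbouring measured genes, ordered by the GRCm38.p6 gene table, the window medians ran from -0.20 to 0.20.

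The dim and bright Swiss 3 arrays gave the same sign for 180 of the 182 named genes. Most were named because all 3 Swiss 3 arrays lay beyond all 6 others. Their sign was thus fixed by the choice, and the count is no check of them. The 2 others were Epcam and Dppa3, neither of which passed the test. Epcam, an epithelial adhesion molecule, had 1039 and 894 in the dim arrays and 525 in the bright one, against 462 to 622 in the 6 others. Its log2 difference was 0.49 in the dim pair and -0.054 in the bright array. Mthfd1l and C1qtnf1, a secreted C1q-like protein, had the widest spread among those called, at -1.17 and -0.71 for Mthfd1l and at 0.69 and 1.18 for C1qtnf1 in the dim pair and the bright array.

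**Figure D4:**
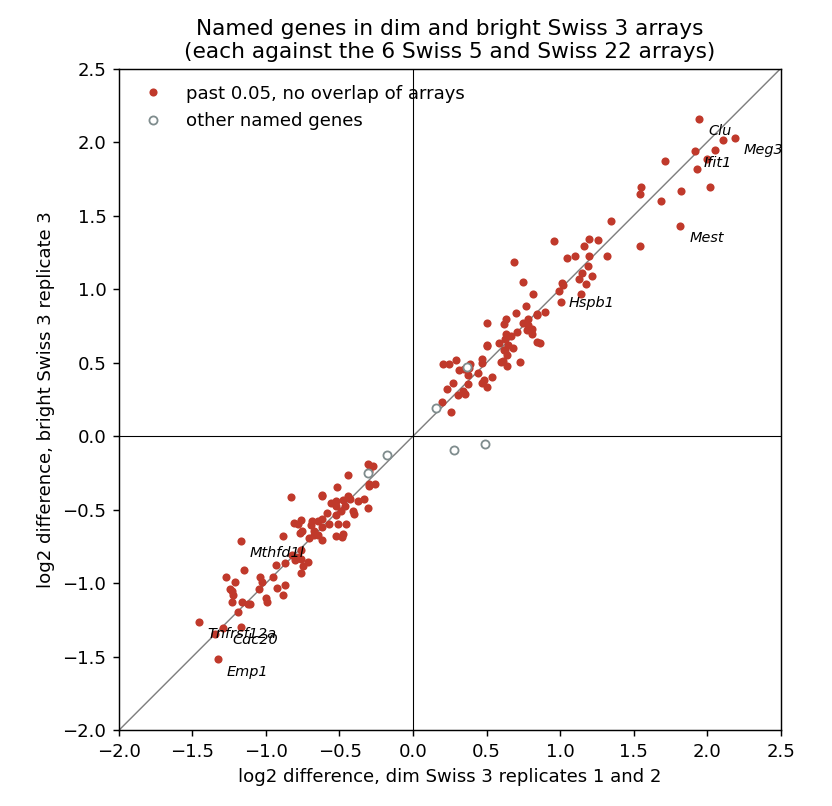
Log2 difference of the 182 named genes from the 6 Swiss 5 and Swiss 22 arrays, for the dim Swiss 3 pair (horizontal axis) and the bright Swiss 3 array (vertical axis), with filled points for genes that passed the test without overlap of arrays and open points for the rest. Both axes share the 6 comparison arrays, and filled points have the same sign on both axes by the way they were chosen. Meg3 lies at 2.19 and 2.03, Cdc20 at -1.29 and -1.30, and the 2 open points on opposite sides of 0 are Epcam and Dppa3.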

How the data were processed

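Poly(A)-primed cRNA of 20 samples was hybridized to Affymetrix Mouse 430 2.0 arrays, per the labels. The deposited values are linear probe set intensities, 1 column per array; how the authors summarized and scaled them is not given in the sources used here, and the arrays were not on a common scale. Genes were named through the platform annotation: of 45101 probe sets 34958 had 1 symbol, 932 several and 9160 none, and 34754 matched the gene table. Here 32 was added, log2 taken, arrays quantile normalized, and each gene read from its brightest probe set, judged across the 20 arrays. Several other named genes also had smaller differences with the mean of all their probe sets. limma 3.58.1 in R 4.3.3 fitted the lines on 9 arrays, with Benjamini-Hochberg adjustment over 18193 genes and a threshold of 0.05. The log2 values were computed here from deposited intensities. Folds are ratios of line means of scaled intensity. The fit was tested on simulated data.

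The members and lists were chosen with earlier results of these data known. Of 52 lists, the lysosomal, heat shock and nucleolar ones were put together after values were seen, as was the comparison with like-level genes. The genes named were the 14 with the largest difference in each direction among those called, without overlap and above background (clone and predicted names passed over), and up to 4 such members of each list, or the 2 largest where a list had none. Other genes, among them Bst2, Irf9, Irf7, Stat2, Ifit2, Mx1, Ddx58, Rsad2, B2m, Cd74, Lamp1, Grn, Psap, Tfeb, Ctsa, Ctss, Mirg, Rian, Dlk1, Igf2, Mki67, Pcna, Mcm6, Ube2c, Cdkn2a, Myc, Atf4, Col1a1 and Col1a2, were chosen after their values were seen. Alternatives covered scaling, pseudocount, probe sets, background, brightness, single arrays and the replicate block.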

Additional observations from a re-analysis of the deposited data

How the results depend on the processing

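The counts depended most on the scale between arrays. Centring gave 671 genes higher and 7428 lower in Swiss 3, 100 and 5186 against each line singly, 1009 and 5499 without overlap, 530 calls for Swiss 5, 8618 for Swiss 22, 0 over line means and 2446 between dim and bright arrays. Without normalization the same counts were 26 and 9974, 12 and 6714, 21 and 7454, 90, 10144, 0 and 5086. Both settings moved the median of all genes below 0, and the cause was not tested. Both add 32 to unscaled intensities. The array medians of these were 6.1 to 10.8 in Swiss 3, 12.6 to 13.9 in Swiss 5 and 16.7 to 18.4 in Swiss 22. Linear scaling gave 438 and 620 against each line singly, 621 for Swiss 5, 210 for Swiss 22 and 0 over line means. Pseudocount 8 gave 917 for Swiss 5 and 316 for Swiss 22, and the larger pseudocount gave 2 over line means.

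The bright array alone, with fewer samples, gave 865 higher and 922 lower genes, 493 and 558 against each line singly, 4115 and 4218 without overlap, 598 calls for Swiss 22 and 338 over line means. With brightness as a block the counts were 783 and 804, 452 and 485, 517 for Swiss 22 and 161 over line means. In that last count Swiss 3 entered as a dim and a bright mean. Line means of bright arrays hold only Swiss 3, Swiss 5, Swiss 22 and Swiss 19, so their spread is that between Swiss 5 and Swiss 22. Line means gave 4 calls with the dim pair and 9 among genes above background, and the cause was not tested.

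Leaving out 1 array gave 1303 to 1538 higher and 1427 to 1583 lower genes, 593 to 797 and 702 to 870 against each line singly, 1719 to 2285 and 1820 to 2379 without overlap, 888 to 1620 for Swiss 5, 310 to 882 for Swiss 22, 1 to 4 over line means and 0 to 1 between dim and bright arrays. Replicate numbers did not pair the arrays (correlations of deviations from -0.0343 to 0.0329, 0 of 9 over 0.1), and with the replicate number as a block 1465 genes were higher and 1599 lower, 741 and 858 against each line singly, with 1328 calls for Swiss 5 and 621 for Swiss 22.

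Log2 differences that changed sign under centring were Epcam -0.25, Gli2 -0.15, Plin2 -0.41, Fabp4 -0.35, Col6a2 -0.29, Col6a1 -0.33, Col3a1 -0.45, Emilin1 -0.61, Ctsb -0.012, Pdgfrb -0.34, Gdf10 -0.22, Hes6 -0.26, Spry2 -0.23, Fgfr1 -0.59, Igfbp3 -0.027, Vegfd -0.34, Hoxd9 -0.14, Foxd1 -0.17, Meis2 -0.54, Dcxr -0.25, Cdkn2c -0.37, Selenok -0.51, Tapbp -0.28, Psme1 -0.41, Psmb8 -0.083, Psmb10 -0.40, Cxcl16 -0.38, Cox8a -0.60, Atp5e -0.69, Tm7sf2 -0.11, Insig1 -0.44, Fdps -0.80, Dhcr7 -0.28, Ech1 -0.28, Cpt1c -0.34, Etfb -0.80, Mgst1 -0.24, Sod2 -0.46, Cyp1b1 -0.79, Lgals9 -0.34, Sema3c -0.31, Plxna1 -0.35, Tef -0.62, Tpp1 -0.025, Hspb1 -0.12. Those that changed sign without normalization were Epcam -0.49, Pax3 -0.15, Pparg -0.15, Gli2 -0.40, Plin2 -0.65, Fabp4 -0.59, Col6a2 -0.53, Col6a1 -0.56, Col3a1 -0.69, Emilin1 -0.85, Postn -0.011, Ctsb -0.25, Pdgfrb -0.58, Sfrp1 -0.011, Fzd5 -0.056, Gdf10 -0.46, Cdon -0.11, Hes6 -0.50, Spry2 -0.47, Fgfr1 -0.83, Igfbp3 -0.27, Igf1 -0.22, Vegfb -0.19, Vegfd -0.58, Hoxd9 -0.38, Foxd1 -0.41, Meis2 -0.78, Dppa3 -0.061, Btg2 -0.24, Dcxr -0.49, Cdkn2c -0.61, Selenok -0.75, Tapbp -0.52, Psme1 -0.66, Psmb8 -0.32, Psmb10 -0.64, C1s1 -0.09, C1ra -0.23, Ccl8 -0.16, Cxcl16 -0.62, Cox8a -0.84, Atp5e -0.93, Tm7sf2 -0.35, Insig1 -0.68, Fdps -1.04, Dhcr7 -0.52, Ech1 -0.52, Cpt1c -0.58, Pex11a -0.14, Etfb -1.04, Gstm1 -0.088, Gsta4 -0.18, Mgst1 -0.48, Sod2 -0.70, Dhrs3 -0.10, Cyp1b1 -1.03, Lgals9 -0.58, Sema3c -0.55, Plxnd1 -0.098, Unc5c -0.18, Plxna1 -0.59, Rora -0.14, Tef -0.86, Hexa -0.018, Tpp1 -0.27, Hspb1 -0.36. Lgals1 was at 0.074 under linear scaling, and with the bright array alone or brightness as a block Epcam was at -0.054 and Dppa3 at -0.095.

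Calls for Pax3, Pparg, Ebf2, Emilin1, Fbln2, Heyl, Hes6, Pex11a, Etfb and Tef were lost without at least 1 single array. The number of arrays limits the precision, and the pseudocount makes log2 differences smaller than the folds, for bright genes too.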
